A study of Mus musculus with 6 samples.

Results

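Neuroglia were the glial cells caught beside the blood vessels of the ischemic mouse retina, and were taken here as every cell that carried the label Neuroglia in the deposited annotation of the single cells. They were 184 of 8944 cells. The other labels used for comparison held 690 Neurons, 1508 Rods and 5925 endothelial cells (ECs), the last made up of 3335 Structural, 1428 Tip and 1162 Proliferative ECs. Smaller labels held 214 Mural, 216 Immune, 157 Optc+ and 50 Cones cells.

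Retinal glia of the mouse are of 2 main kinds besides microglia. Müller glia span the whole thickness of the retina, take up glutamate released by neurons and turn it into glutamine, move potassium and water out of the tissue, and take part in the recycling of retinoids. Astrocytes lie on the inner surface among the nerve fibres and form the template over which the superficial vessels spread. In an ischemic retina both kinds are known sources of vascular endothelial growth factor.

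The study compared 2 genotypes in oxygen-induced retinopathy (OIR), a model in which pups are kept in high oxygen so that retinal capillaries are lost, and are then returned to room air, where the retina becomes ischemic. Mice of genotype eNOS+/+ (C57BL/6J) and mice homozygous for a knockout allele of Nos3, the gene of endothelial nitric oxide synthase (eNOS-/-, on the C57BL/6J background), were held in 75% oxygen from P7 to P12 with CD1 fostering mothers, and their retinas were taken at P14. The knockout is constitutive, so every cell of the animal carries it, and no retinas from mice kept in room air were among the samples. Each genotype had 3 replicates, each from 3 to 5 pooled retinas, which were enriched for ECs on beads coated with CD31 antibody before droplet sequencing by Drop-seq. The glial cells are therefore those that came through a selection for another cell type.

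Transcripts were counted as UMIs, molecular tags that count each captured RNA molecule once, and levels are given as counts per 1000000 UMIs of the same label in the same replicate (CPM). The reads come from the 3' ends of transcripts, so CPM was not scaled by gene length and levels of different genes are not ranked against each other. The replicates of eNOS+/+ held 27, 10 and 28 Neuroglia cells, with 23937, 6962 and 16732 UMIs in sum. Those of eNOS-/- held 33, 86 and 0 cells, with 28752 and 59981 UMIs in the 2 replicates that had any. All levels below therefore rest on 5 replicates, and 1 UMI was worth between 16.7 CPM in the deepest and 143.6 CPM in the shallowest of them. A Neuroglia cell had a median of 541 UMIs and 377 genes, against 579 UMIs in Neurons, 361 in Rods and 682 in ECs. Cells were not all independent of each other, since the 184 cell barcodes fell into 136 families that shared the first 11 of 12 bases within a replicate, 14 of them with 4 members. Over all labels, 8944 cells fell into 6900 such families. Of all cells, 6 barcodes occurred in more than 1 replicate, and 0 of these were Neuroglia. The labels were made by clustering the same UMIs, so differences between labels are descriptions and were given no test.

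The defining genes of Müller glia were present in each of the 5 replicates and far lower in Neurons, Rods and ECs. Glul (chromosome 1:153899944-153909723, GRCm38), the glutamine synthetase that makes glutamine from glutamate, stood at 5473, 2585 and 4961 CPM in eNOS+/+ replicates 1 to 3 and at 6608 and 7736 CPM in eNOS-/- replicates 1 and 2. Its mean of 5473 CPM ± 1937 (SD, n = 5) compared with 45.1 CPM in Neurons, 91.7 in Rods and 367 in ECs. Rlbp1 (chromosome 7:79374870-79387048), the cellular retinaldehyde-binding protein, had 4387, 1867 and 2331 CPM in eNOS+/+ and 4765 and 4818 CPM in eNOS-/-. It averaged 3634 CPM ± 1420 (SD, n = 5) in Neuroglia and between 3.40 and 6.91 CPM in Neurons, Rods and ECs, while Immune cells had 110 CPM.

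Slc1a3 (chromosome 15:8634124-8710764), the glutamate transporter GLAST, had 3927, 2442 and 1733 CPM in eNOS+/+ and 2574 and 2351 CPM in eNOS-/-. Its mean was 2605 CPM ± 806 (SD, n = 5), against 16.9 in Neurons, 8.09 in Rods and 4.94 in ECs. Aqp4 (chromosome 18:15389496-15410982), the water channel of glial endfeet, was the most even of the 4 markers when all cells were summed. It had 752, 718 and 657 CPM in eNOS+/+ and 591 and 934 CPM in eNOS-/-. The mean of 730 CPM ± 129 (SD, n = 5) faced 7.88 CPM in Neurons, 10.2 in Rods and 0.344 in ECs. With 10 CPM added to both means, the log2 ratios of Neuroglia over Neurons, Rods and ECs were 6.64, 5.75 and 3.86 for Glul, 8.05, 8.09 and 7.75 for Rlbp1, 6.60, 7.18 and 7.45 for Slc1a3, and 5.37, 5.20 and 6.16 for Aqp4. Optc+ cells, the label closest to Neuroglia in these genes, had 1657 CPM of Glul, 168 of Slc1a3 and 127 of Aqp4. With 1 cell per barcode family, Aqp4 was no longer even, and its lowest replicate had a log2 ratio of 0 over Neurons and over ECs. The SD of that ratio between replicates rose from 0.882 to 2.49 over Neurons and from 0.155 to 2.71 over ECs.

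**Figure D1:**
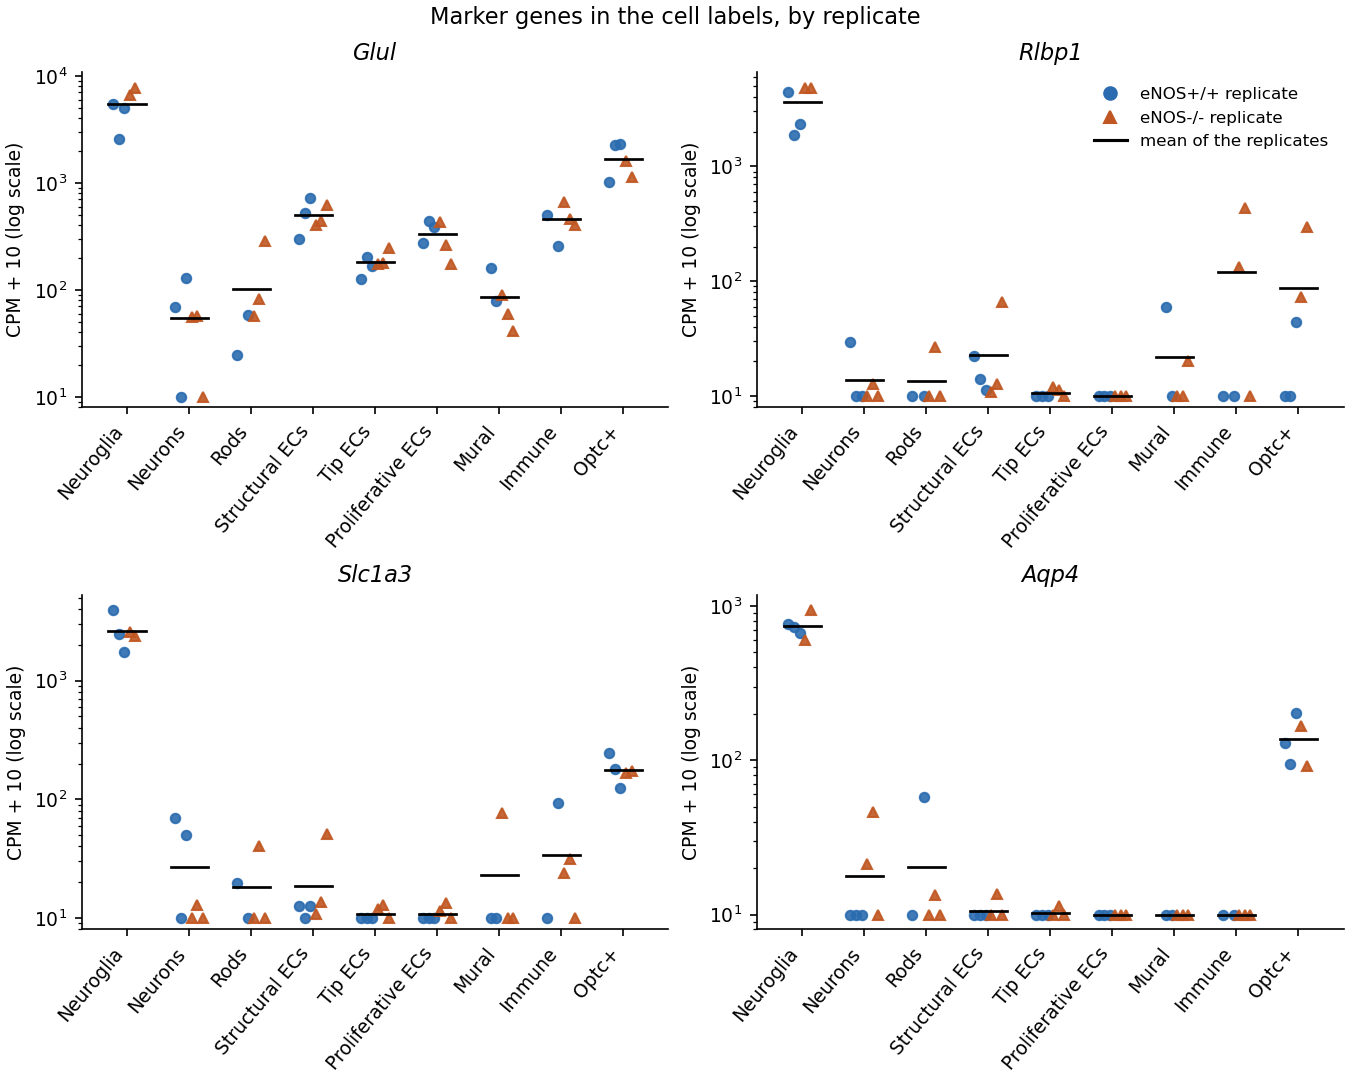
CPM plus 10 on a log scale for Glul, Rlbp1, Slc1a3 and Aqp4 in each cell label, with 1 point per replicate of at least 10 cells (blue circles eNOS+/+, orange triangles eNOS-/-) and a bar at the mean. Neuroglia had 5 replicates and all of their points lie above the points of Neurons, Rods and the 3 EC labels; Optc+ cells come next for 3 of the genes and Immune cells for Rlbp1.

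The same markers were seen cell by cell. After each cell of at least 200 UMIs was thinned to 200 UMIs, 151 of 172 Neuroglia cells (87.8%) had a UMI of at least 1 of the 4 markers, with 109 cells for Glul, 85 for Rlbp1, 69 for Slc1a3 and 19 for Aqp4. The same measure gave 6 of 643 Neurons (0.933%), 27 of 1339 Rods (2.02%), 349 of 5323 ECs (6.56%) and 57 of 152 Optc+ cells (37.5%). Neurons and Rods are not known for these genes, and their shares are the background against which that of Neuroglia is read. Free RNA, mixed droplets and low expression were not told apart in it. The median depth before thinning was 564.5 UMIs in these Neuroglia cells and 619 in these Neurons. At full depth 174 of the 184 cells had a UMI of 1 of the 4 genes.

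A longer list of Müller glia genes gave the same picture. All 24 genes had a UMI in Neuroglia and 21 of the 23 with at least 20 UMIs had their highest mean CPM there among the 10 labels. Here and in the lists that follow, a gene was counted as highest in Neuroglia only with at least 20 UMIs. The list summed to between 43522 and 52583 CPM over the 5 Neuroglia replicates. It had means of 1173 CPM in Neurons, 1404 in Rods, 3645 in ECs, 20241 in Optc+ cells and 22949 in Immune cells. Among its members, Dkk3, a secreted relative of Wnt inhibitors, averaged 2582 CPM, Car2, carbonic anhydrase, 3458 CPM, and Pdpn, podoplanin, 973 CPM. Apoe, which carries lipids between cells, was an exception. It averaged 5877 CPM in Neuroglia but 20342 CPM in Immune cells, where it made up most of the sum of the list, and 6494 in Optc+ cells. Hes1, a Notch target, was the other, with 1194 CPM in Neuroglia and 1855 in Optc+ cells.

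Markers of other cells were low but not all at 0. Of the microglia and other immune list Neuroglia held 8 UMIs in all, with C1qa, C1qb, C1qc, Tyrobp, Ptprc, Tmem119 and Aif1 at 0. The cone list gave 11 UMIs, and the oligodendrocyte list 22 UMIs with Mag, Mobp and Cspg4 at 0. The retinal pigment epithelium list gave 36 UMIs with Rpe65, Rgr and Best1 at 0. Rod genes summed to between 287 and 1817 CPM per replicate, against a mean of 86354 CPM in Rods themselves. The sum was highest in the third eNOS+/+ replicate, at 1076 CPM, and in the second eNOS-/- replicate, at 1817 CPM. Bipolar cell genes averaged 426 CPM against 16826 CPM in Neurons.

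Amacrine, horizontal and ganglion cell genes averaged 1283 CPM against 4379 in Neurons, and most of that was Pax6, at 762 CPM, which Müller glia share with amacrine cells. Mural genes summed to between 0 and 2156 CPM, mainly through Rgs5, at 0, 1293 and 418 CPM in eNOS+/+ and 1809 and 367 CPM in eNOS-/-.

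Endothelial genes summed to 1934 to 2032 CPM in the 5 replicates against a mean of 9423 CPM in ECs. They were not spread evenly. Cldn5, the tight junction claudin that ECs carried at 1582 CPM, was at 69.6 CPM in Neuroglia, close to the 115 CPM in Neurons. Kdr (VEGFR2), the main receptor of VEGF-A, was at 961, 144 and 717 CPM in eNOS+/+ and at 1113 and 500 CPM in eNOS-/-. The mean of 687 CPM ± 383 (SD, n = 5) lay beside 865 CPM in ECs and 33.6 CPM in Neurons, and the ranges of Neuroglia and ECs overlapped. Flt1 (VEGFR1) averaged 628 CPM against 1468 in ECs and 85.2 in Neurons. In UMIs over all Neuroglia, Kdr had 98, Flt1 71, Ctla2a 13 and Cldn5 7. Pecam1, the gene of CD31, on which the cells were enriched, had 54. What free endothelial RNA or mixed droplets add to these levels was not tested.

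Genes of the tasks of Müller glia were described group by group, each list by the members of highest CPM. Among genes for glutamate, ammonia and amino acids, 5 of 13 in the table were highest in Neuroglia, and the list summed to 9444 CPM against 883 in Neurons and 1286 in ECs. Beside Glul and Slc1a3 stood Slc38a3, a glutamine carrier, with 254 CPM. Of genes for potassium and water, Atp1b2, a sodium pump subunit, had 408 CPM and was higher in Neurons, at 598 CPM. Dag1, dystroglycan, had 269 CPM and Dmd, dystrophin, 206 CPM. Kcnj10, the potassium channel Kir4.1, was thin, with 13 UMIs in all Neuroglia and a mean of 58.4 CPM, and was at 0 in Neurons and Rods.

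Retinoid genes summed to 5236 CPM in Neuroglia against 132 in Neurons and 127 in ECs. Besides Rlbp1 they held Rdh10, a retinol dehydrogenase, at 629 CPM, and Aldh1a1, which makes retinoic acid, at 220 CPM. Lipid genes summed to 20333 CPM. Dbi, the acyl-CoA-binding protein, had 6264 CPM with 4763 in its lowest replicate, while no replicate of another label passed 966 CPM. Acsl3, an acyl-CoA synthetase, had 3668 CPM, and Clu, clusterin, had 3741 CPM.

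Genes linked to gliosis and metal or acute phase responses averaged 9128 CPM in sum, with 5306 CPM in the lowest replicate, and 4 of 21 were highest in Neuroglia. Cp, ceruloplasmin, which oxidises iron, had 2743 CPM, Vim, vimentin, 2366 CPM, and Mt1, a metallothionein, 1386 CPM. Serpina3n, Fgf2 and Timp1, which are known from reactive glia, were at 0 in every replicate. Other members of the list were detected, among them Mt2 with 57 UMIs, B2m with 49, Socs3 with 45, S100a6 with 41 and Gfap with 23. Vim was also at 1831 CPM in ECs and 1904 in Mural cells, so it did not set Neuroglia apart.

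Among transcription factors of glia and progenitors 10 of 19 were highest in Neuroglia, and the list summed to 13394 CPM against 2317 in Neurons. Sox9, which Müller glia share with retinal progenitors, had 1253, 1436 and 657 CPM in eNOS+/+ and 939 and 800 CPM in eNOS-/-, and no replicate of another label passed 158.5 CPM. Zfp36l1, an RNA-binding protein, and Id3, an inhibitor of basic helix-loop-helix factors, averaged 2401 and 2379 CPM. Glycolysis genes gave another order, with a sum of 8760 CPM in Neuroglia, 10898 in Neurons and 3775 in ECs. Eno1 (enolase) at 846 CPM and Aldoc (aldolase C) at 1139 CPM were the 2 of 20 that were highest in Neuroglia. Crystallins summed to 2541 CPM, nearly all of it from Crym and Cryab. Cell cycle genes summed to 1910 CPM, below the 4624 CPM of Proliferative ECs.

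The 25 genes that led Neuroglia over every other label were chosen by the ratio of mean CPM to that of the next highest label, with 10 CPM added to both. Of 1370 genes with enough UMIs to be ranked, 146 were over 2 times and 46 over 5 times the next label. Crym (chromosome 7:120186380-120202111), a crystallin that binds thyroid hormone, came first with a ratio of 80.1. It had 2423, 1149 and 1315 CPM in eNOS+/+ and 1530 and 1734 CPM in eNOS-/-, and at most 41.1 CPM in any replicate of another label. Dio2, the deiodinase that activates thyroid hormone, was also among the 25, with a ratio of 14.3. Gfap came after Crym at 42.6, Rlbp1 followed at 30.4, Espn, the actin bundler espin, at 26.1, Pdlim3, an actin-associated protein, at 23.9, and Gpr37, a receptor, at 18.0.

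Transcription factors among the 25 were Egr3 (17.2), Sox2 (13.4), Nr2e1 (8.43) and Sox9 (8.26). Secreted factors were Bmp3 (14.4), Npy (12.2), Frzb, a Wnt inhibitor (11), and Vegfa (10.8). Others of known role were Slc1a3 (14.7), Pdgfra, the receptor of platelet-derived growth factor A (11.8), the adhesion molecule Vcam1 (10.7), Clrn1 (10.7), Dbi (8.48), Fxyd6, a regulator of the sodium pump (8.25), and the transporter Abca8a (8.06). Gm3764 (13.8), Vat1l (13.4) and Ndrg2 (8.61) completed the list. For 14 of the 25 the lowest Neuroglia replicate was above every replicate of the other labels, and for 13 of the 25 Optc+ cells were the next label. Gfap was an exception on both counts, at 0 in the first replicate of each genotype.

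Vegfa (chromosome 17:46016993-46032369), the ligand of Kdr and Flt1 and the main driver of vessel growth in an ischemic retina, had its highest level in Neuroglia. Its levels were 3342, 1436 and 1076 CPM in eNOS+/+ and 2330 and 2584 CPM in eNOS-/-, a mean of 2154 CPM ± 909 (SD, n = 5). Neurons had 188 CPM, with 336 in the highest replicate, and Cones had 190 CPM in their single replicate of at least 10 cells. Optc+ cells had 115 CPM, Rods 19.6 CPM and ECs 5.92 CPM. The 2 genotypes overlapped in Neuroglia, and their lowest replicate was above every replicate of the other labels. Per cell thinned to 200 UMIs, 45 of 172 Neuroglia (26.2%) had a Vegfa UMI, against 34 of 643 Neurons (5.29%) and 9 of 5323 ECs (0.169%), the last of which can be read as background.

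Other angiogenic factors were fewer. Tgfb2 had 1275 CPM in Neuroglia, 747 in Optc+ cells and 634 in Neurons. Sparc, a matrix protein, had 6633 CPM but 9589 in ECs. Serpinf1, the anti-angiogenic factor PEDF, rested on 8 UMIs. Vegfb, Pgf, Spp1, Thbs1 and Sema3a were at 0. Of hypoxia targets, Slc2a1, the glucose transporter GLUT1, had 574 CPM in Neuroglia and 1000 in ECs. Epas1, the hypoxia factor HIF-2 alpha, had 281 CPM against 377 in ECs, and Ankrd37 had 222 CPM against 348 in Neurons. Apart from Vegfa, 1 of the 20 genes of the hypoxia list was highest in Neuroglia, P4ha1, a prolyl hydroxylase of collagen, at 241 CPM. Mural cells followed it with 218 CPM.

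Immediate early genes, which switch on within minutes of many stimuli, tissue dissociation among them, were the other large block of Neuroglia RNA. The list of 20 immediate early and heat shock genes summed to 26361, 36340 and 26656 CPM in eNOS+/+ and to 29320 and 29493 CPM in eNOS-/-. The mean of 29634 CPM compared with 3299 CPM in Neurons, 6048 in Rods, 5746 in ECs and 12445 in Optc+ cells, and 12 of the 20 genes were highest in Neuroglia. Fos (chromosome 12:85473890-85477273) had 4930, 6607 and 5797 CPM in eNOS+/+ and 7269 and 9186 CPM in eNOS-/-, against 134 in Neurons, 218 in Rods and 544 in ECs. In cells thinned to 200 UMIs, 105 of 172 Neuroglia (61.0%) had a Fos UMI, against 432 of 5323 ECs (8.12%).

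Jun averaged 4608 CPM, Egr1 2741 CPM, Fosb 2151 CPM and Btg2, an antiproliferative gene, 4051 CPM, and for each the next label was Optc+, at 1748, 1242, 1041 and 767 CPM. Heat shock genes did not go with them. Hsp90aa1 had 756 CPM in Neuroglia and 3550 in Rods, Hspa8 had 793 CPM against 1078 in ECs, and Hspa1a rested on 6 UMIs. The retinas were digested before capture, and no undigested sample was among the data, so transcription in the retina and transcription during digestion cannot be told apart here.

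**Figure D2:**
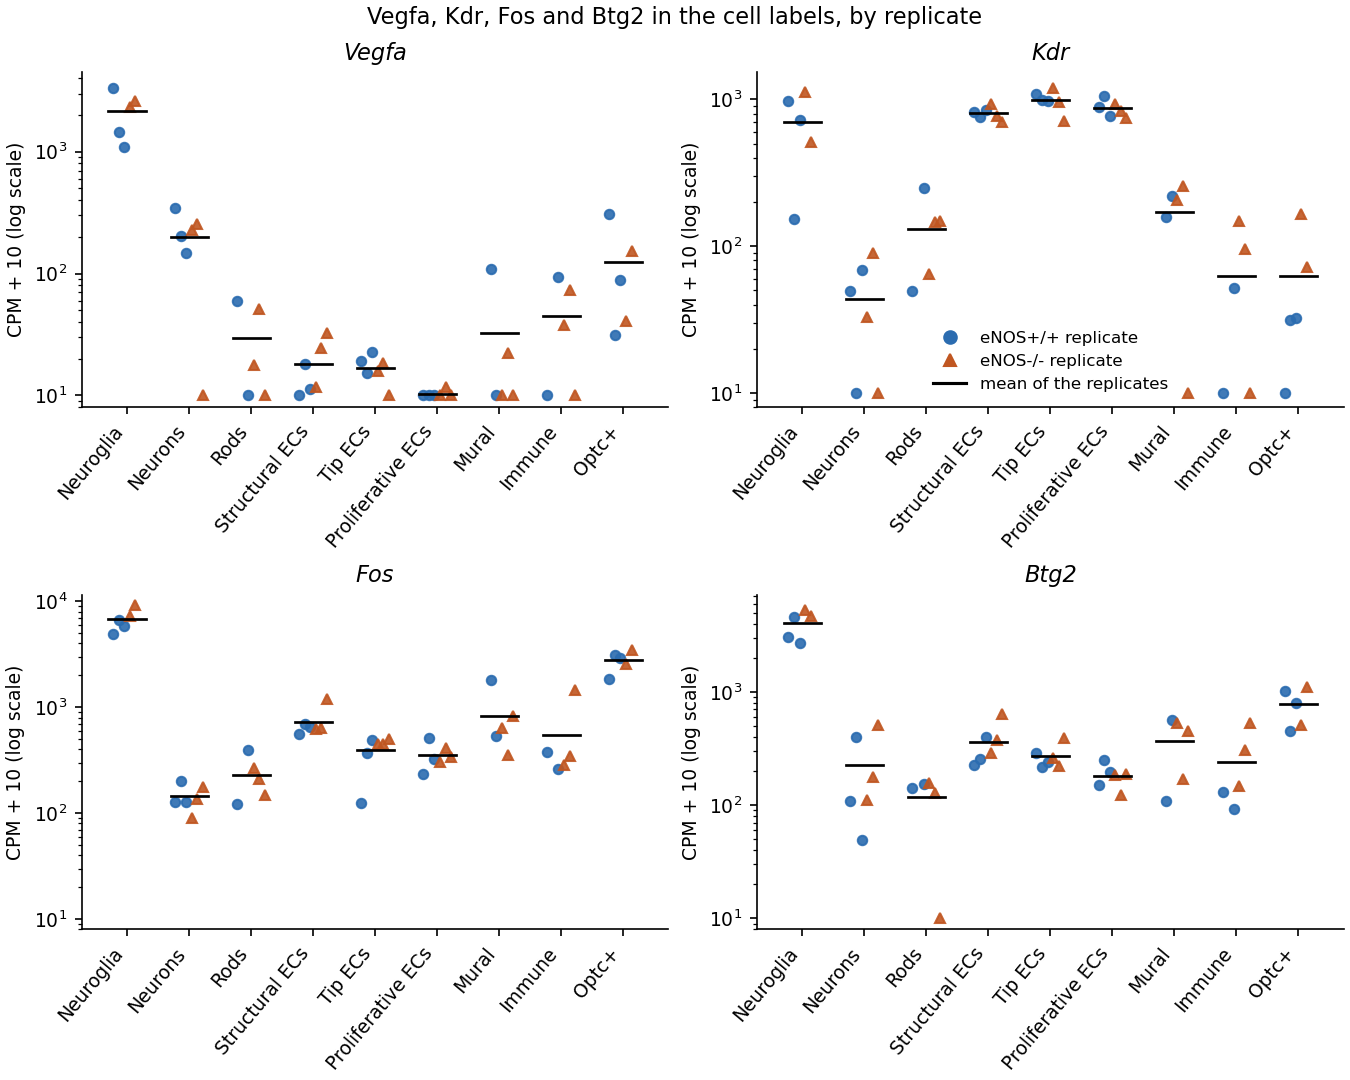
CPM plus 10 on a log scale for Vegfa, its receptor gene Kdr, and the immediate early genes Fos and Btg2 in each cell label, 1 point per replicate of at least 10 cells, with a bar at the mean. Vegfa, Fos and Btg2 are highest in all 5 Neuroglia replicates, whereas Kdr in Neuroglia, at 144 to 1113 CPM, overlaps the ECs.

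The promoters of these genes were read from RefSeq (GRCm38.p6), as the 250 bases before the start of the gene, to show whether the response elements of early genes lie there. Of the 20 genes 16 had a promoter in the table, and Egr1, Ier2, Hsp90aa1 and Hspa8 did not. Sites farther than 250 bases before the start were not searched. TGACGTCA, the cyclic AMP response element, was found in 2 of the 16 (12.5%) and in 1.77% of the promoters of 27025 genes. The CArG box, the site of serum response factor, was found in 1 of 16 (6.25%) against 1.62%. TGANTCA, the site of AP-1, was found in 0 of 16 against 7.82%. Both strands were searched. Of the 25 leading genes 20 had a promoter, and TGACGTCA was found in 4 of them (20%), Pdlim3, Dio2, Gm3764 and Nr2e1. The CArG box and TGANTCA were each found in 0 of the 20. On the list of Müller glia genes 15 had a promoter, with TGACGTCA and the CArG box in 0 and TGANTCA in 1 (6.67%). Shown are the 2 genes of the early list that were highest in Neuroglia and held a motif, Btg2 (chr1:134079156-134079405, minus strand, TGACGTCA first base at -166) and Zfp36 (chr7:28379229-28379478, minus strand, CArG box first base at -58). Motifs are in capitals, and a match in letters is not a measure of binding.
Btg2: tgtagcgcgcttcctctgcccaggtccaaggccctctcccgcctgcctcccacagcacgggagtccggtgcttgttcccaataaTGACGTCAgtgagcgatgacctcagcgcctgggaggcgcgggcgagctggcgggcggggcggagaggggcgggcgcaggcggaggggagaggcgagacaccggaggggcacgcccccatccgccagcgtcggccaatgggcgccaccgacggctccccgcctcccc
Zfp36: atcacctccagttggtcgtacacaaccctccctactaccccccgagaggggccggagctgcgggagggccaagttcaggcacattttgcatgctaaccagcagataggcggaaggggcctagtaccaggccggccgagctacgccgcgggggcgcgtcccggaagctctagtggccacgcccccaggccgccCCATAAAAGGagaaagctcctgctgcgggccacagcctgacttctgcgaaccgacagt
Zfp36, which speeds the decay of cytokine mRNAs, had 1587 CPM in Neuroglia, 435 in Mural cells and 197 in ECs.

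Neuroglia were not uniform. Gfap, Pdgfra and S100b, genes of retinal astrocytes, were held by few cells, and 12 of the 184 cells had 2 or more UMIs of the 3 together, whereas 6 cells had 1 and 166 had 0. This group was drawn after the counts had been seen, and so was given no test. The 12 cells fell into 10 barcode families, with 0, 2 and 6 cells in the eNOS+/+ replicates and 2 and 2 in eNOS-/-. They held 6.52% of the cells and 9.51% of the UMIs. Gfap, the intermediate filament of astrocytes, had 22 of its 23 UMIs in them, Pdgfra 38 of 39 and S100b 38 of 42. The 3 genes were taken from the list of 12 astrocyte genes, of which 9 were measured, and the other measured members were split. Aldoc, Igfbp5 and Slc1a2 had a higher CPM in these cells, Slc1a2 with 2 of 15 UMIs. Cdh2 was lower, at 1465 against 1815 CPM, and Aldh1l1 and Nkain4 had 0 UMIs there.

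Cst3, cystatin C, which was not used to draw the group, went with it. The 12 cells held 803 of its 909 UMIs, 61917 CPM against 859 CPM in the other 172 cells. Of the 803, 311 lay in a cell of 3762 UMIs and 233 in a cell of 2407 UMIs. These cells weigh most in the pooled levels of the 12, here and below. Every one of the 12 had Cst3, from 2 to 311 UMIs, while no other cell had more than 13 and 48 others had any. Cst3 made up 0.952% to 9.68% of the UMIs of the 12 cells. Among the rest, 3 cells were at 1% or more. Outside Neuroglia, Cst3 was also high in Immune cells, which ranged from 6646 to 15806 CPM per replicate. The pericyte gene Rgs5 had 88 of its 90 UMIs in the 12 cells, in 7 of them. Igfbp2 had 15 of 18 UMIs and Cnmd 18 of 18.

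The genes of Müller glia were mixed in the 12 cells. Of the 24 on the list 16 had a lower CPM there than in the other Neuroglia, 7 of them with 0 UMIs, and 8 had a higher one, Sox2, Hes1, Vim, Apoe, Cp, Prdx6, Pdpn and Cd9. At equal CPM 48.6 UMIs of Acsl3 would have fallen in them, and there were 0, as there were of Crym (236 UMIs in the others), Gpr37 (126) and Aqp4 (107). Genes outside that list also had 0 UMIs in the 12 cells. Among them were the immediate early gene Fosb (333 in the others), Adamts1 (170), Pax6 (129), Eno1 (127), Car14 (123), Cacng4 (109) and Rdh10 (103). Glul was at 2082 CPM in the 12 cells and 6961 in the others, Rlbp1 at 1311 against 4587, and Vegfa at 694 against 2601. Dbi at 13340 against 5041 CPM, Vim at 6554 against 1694, and Aldoc at 2622 against 1005 went the other way. Apoe was at 7017 and 5195 CPM. Fos was at 2467 CPM in the 12 cells and 8015 in the others.

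**Figure D3:**
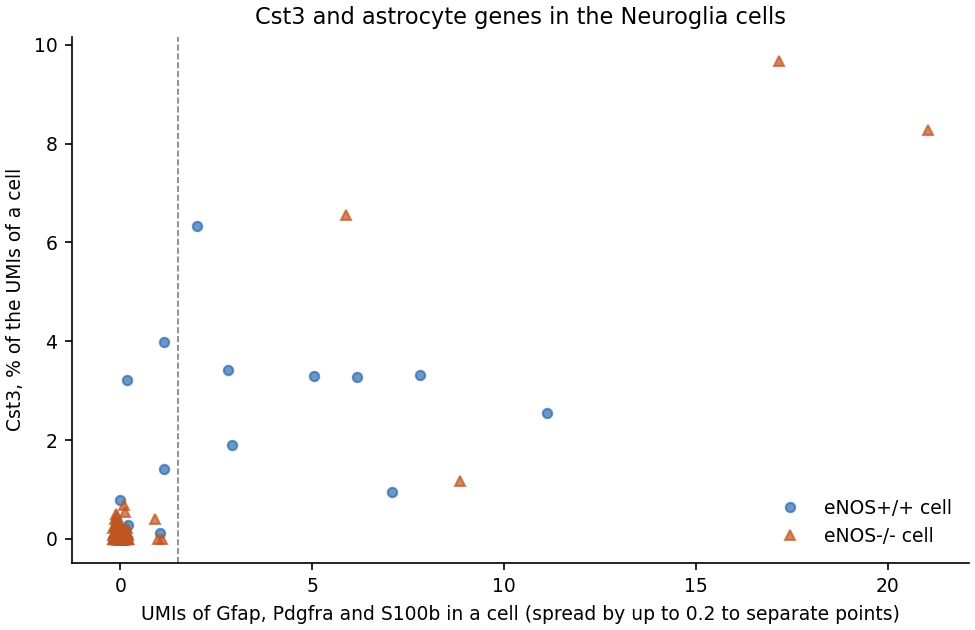
Each point is 1 of 184 Neuroglia cells, with its UMIs of Gfap, Pdgfra and S100b on the horizontal axis and Cst3 as a percentage of its UMIs on the vertical axis; colour and shape give the genotype and the dashed line marks the cut at 2 UMIs. The 12 cells right of the line carry from 0.952% to 9.68% Cst3, and 3 cells left of it reach 1%.

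Whether Neuroglia were fewer without eNOS was asked over the 6 replicates. They made up 27 of 1019 cells (2.65%, 95% Wilson interval 1.83 to 3.83), 10 of 613 (1.63%) and 28 of 1399 (2.00%) in eNOS+/+, and 33 of 1788 (1.85%), 86 of 3710 (2.32%) and 0 of 415 cells in eNOS-/-. In the last, 3 counts would be a share of 0.723%, and the upper Wilson bound is 0.917%. The intervals cover counting error only. The means were 2.09% ± 0.515 in eNOS+/+ and 1.39% ± 1.22 in eNOS-/- (SD, n = 3 each), a difference of -0.706 percentage points (two-sided exact permutation test, p = 0.5, where 3 against 3 replicates cannot go below 0.1). The groups overlapped. Without the third eNOS-/- replicate the difference was -0.0123 points. As a share of cells that were not ECs, Neuroglia were 5.19%, 12% and 9.12% in eNOS+/+ and 6.13%, 5.96% and 0% in eNOS-/- (exact permutation test, p = 0.3). ECs made up from 49.0% to 86.5% and Rods from 1.14% to 38.2% of the cells of a replicate, and the part of the enrichment in these shares was not tested.

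**Figure D4:**
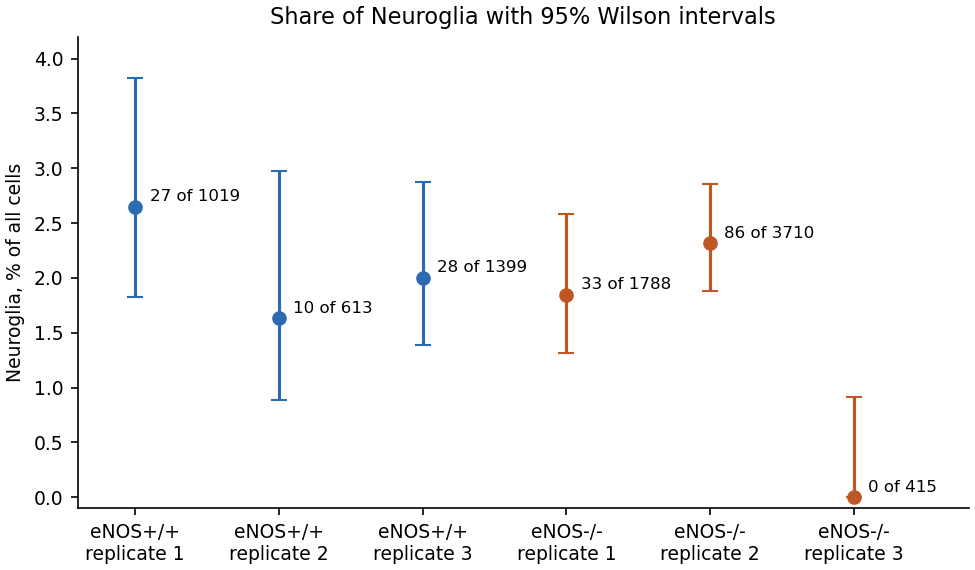
Neuroglia as a percentage of all cells in each replicate (blue eNOS+/+, orange eNOS-/-), with 95% Wilson intervals and the cell counts beside the points. The 5 replicates with Neuroglia lie between 1.63% and 2.65%, and the third eNOS-/- replicate is at 0 of 415 cells.

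The effect of eNOS loss on the glial transcriptome was tested with edgeR's quasi-likelihood test on UMIs summed per replicate, 3 eNOS+/+ against 2 eNOS-/-. Of 472 genes that passed the filter on low counts 0 (0%) were called at an adjusted p below 0.05 (Benjamini-Hochberg over the 472). At an unadjusted p below 0.05 there were 28 genes (5.93%), 13 higher (2.75%) and 15 lower (3.18%) in eNOS-/-. DESeq2 also called 0, with 19 genes at an unadjusted p below 0.05. The groups did not overlap in 106 genes (22.5%). The coefficient of biological variation was 0.363, and changes that were small against this spread were not detectable. In bulk sums of this kind, fewer cells of a kind and less RNA per cell cannot be told apart.

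The knocked-out gene gave no check in these cells. Nos3 (chromosome 5:24364810-24384474) had 0 UMIs in all 5 Neuroglia sums. In ECs it was at 19.4, 36.6 and 23.6 CPM in eNOS+/+ and at 21.2, 16.1 and 32.8 CPM in eNOS-/-, with overlap. Over the 5 replicates that had Neuroglia, which leaves out the third eNOS-/- value, the log2 change was -0.49 ± 0.33 (SE; edgeR adjusted p = 0.657). The deleted stretch of the gene is not given in the sources used here, and 3' tags that lie outside it check nothing. The transcript AI506816 (chromosome 5:23698296-23712667), on the same chromosome, had 2 UMIs in Neuroglia and was not tested there. In ECs of the same 5 replicates, where 78 of 10468 genes (0.745%) were called, it was lower in eNOS-/- by a log2 change of -2.74 (edgeR, adjusted p = 0.000878), with 122, 140 and 78.8 CPM against 12.5 and 21.0 CPM.

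AW011738 (chromosome 4:156203304-156205151) had the smallest p of the 472 genes. It had 1, 0 and 1 UMI in eNOS+/+ and 15 and 43 UMIs in eNOS-/-, or 41.8, 0 and 59.8 against 522 and 717 CPM, with no overlap. From the summed UMIs the ratio was 15.6-fold, with an exact counting interval of 4.12 to 132. The fitted log2 fold change was 3.89 ± 0.86 (SE; edgeR adjusted p = 0.191, with 0.0190 to 0.998 over the alternatives). ECs, at 3.64, 9.14 and 7.88 against 17.7 and 14.4 CPM, differed in the same direction (log2 1.18, adjusted p = 0.339).

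The next smallest p among genes with higher values in eNOS-/- belonged to Fxyd6, with 209, 0 and 120 CPM against 661 and 684 CPM (log2 2.34 ± 0.67, adjusted p = 0.404). The mitochondrial ribosomal RNA mt-Rnr2 had 5013, 13358 and 6933 against 13321 and 24941 CPM, which overlapped (log2 1.41 ± 0.41, adjusted p = 0.404). Cntn1, the adhesion molecule contactin, and Ddit3, the stress factor CHOP, had log2 values of 1.94 and 2.07 (adjusted p = 0.426 and 0.472).

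Lowest p values with lower levels in eNOS-/- were those of Jund, Hes1, Eif2s2, Gfap and mt-Co2. Jund, a subunit of AP-1, had 1212, 862 and 1195 CPM against 348 and 200 CPM (log2 -1.94 ± 0.54, adjusted p = 0.404). Hes1 had 2005, 1149 and 1913 CPM against 417 and 483 CPM (log2 -1.79 ± 0.53, adjusted p = 0.404). Both were without overlap, and in ECs their log2 values were -0.91 and -0.79. Eif2s2, a translation initiation factor, stood at a log2 of -2.03 (adjusted p = 0.426). Gfap had 0, 11 and 11 UMIs in eNOS+/+ against 0 and 1, with overlap. That is a 41.0-fold ratio with an interval of 6.62 to 1691 that covers counting error only. The fitted log2 change was -5.14 ± 1.64 (SE; edgeR adjusted p = 0.426). Of the 23 Gfap UMIs 22 lay in the 12 cells with astrocyte genes. For mt-Co2, a subunit of cytochrome oxidase, the log2 change was -1.74 in Neuroglia and -1.13 in ECs (adjusted p = 0.472 and 0.165).

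**Figure D5:**
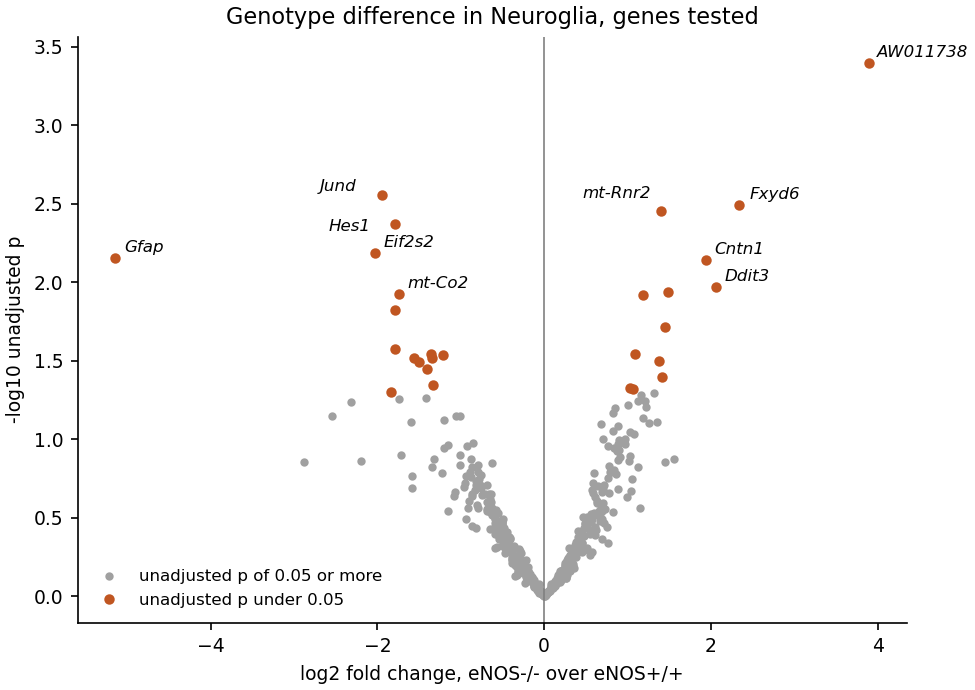
Log2 fold change of eNOS-/- over eNOS+/+ on the horizontal axis and -log10 of the unadjusted p on the vertical axis for the 472 genes tested in Neuroglia, with the 28 genes under 0.05 in orange and the 5 of smallest p in each direction named. AW011738 at 3.89 and Gfap at -5.14 lie farthest out, and none of the genes passed the adjustment.

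Müller glia genes were spread on both sides of 0. Of 24 listed 20 were tested, 0 were called, 12 were above 0 and 8 below, and their median log2 change was 0.15 against -0.06 over all 472 genes, of which 222 (47%) were above 0. Glul and Rlbp1 were higher in both eNOS-/- replicates than in any eNOS+/+ replicate (log2 0.83 ± 0.42 and 0.83 ± 0.46, adjusted p = 0.782 and 0.836). Slc1a3 and Aqp4 overlapped, at -0.02 and 0.27. Car2 had 2966, 2298 and 1972 CPM against 4834 and 5218 CPM (log2 1.19 ± 0.42, adjusted p = 0.472). Of the 20 tested Müller genes 7 (35%) lay wholly higher in eNOS-/-, Glul, Rlbp1, Car2, Abca8a, Cp, Gpr37 and Spc25, and 1 (5%), Hes1, lay wholly lower. Over all 472 genes 44 (9.32%) lay wholly higher and 62 (13.1%) wholly lower. These counts are a description of a list chosen with the data known, and the list itself was not tested.

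Vegfa differed by a log2 of 0.41 ± 0.52 (adjusted p = 0.920), less than its standard error, Kdr by 0.30 and Tgfb2 by -0.29. The glycolysis list, with 10 genes tested, had a median of -0.01. Of 14 immediate early and heat shock genes tested 0 were called and 10 were below 0, with a median of -0.15. Fos itself, which had no overlap, was at 0.68 ± 0.36 (adjusted p = 0.782). Of nitric oxide genes, Nos1, Nos3 and Arg2 were at 0 in all Neuroglia sums, and Ddah1 and Ddah2, which degrade inhibitors of nitric oxide synthases, were tested, with log2 values of 0.57 and 1.56 (adjusted p = 0.887 and 0.842).

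Mitochondrially encoded genes were farthest from the median of all genes among the lists with at least 10 genes tested. Of 13 tested 0 were called, 11 were below 0 and the median was -1.01, with 5 lower and 1 higher at an unadjusted p below 0.05. They were not uniform within eNOS+/+, where the list summed to 15290, 44240 and 36517 CPM against 25111 and 34711 CPM in eNOS-/-, so the groups overlapped in this sum. It includes mt-Rnr2, at 13321 and 24941 CPM in eNOS-/-. Taken singly, 4 of the 13 genes (30.8%), mt-Nd2, mt-Nd6, mt-Co2 and mt-Atp8, lay wholly lower in eNOS-/- and 0 wholly higher. Over all 472 genes 13.1% lay wholly lower and 9.32% wholly higher. The ribosomal RNAs mt-Rnr2 and mt-Rnr1 had log2 values of 1.41 and 0.80, opposite to the mRNAs. In the same libraries mt-Rnr2 was at 0.90 in ECs and 0.87 in Neurons (edgeR adjusted p = 0.233 and 0.757), and mt-Co2 at -1.13 and -1.07 (adjusted p = 0.165 and 0.757), so both had the same sign in all 3 labels.

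Whether the genotype acted differently on Neuroglia than on other cells was tested as an interaction, with the replicate as a block. Against ECs 8314 genes were tested and 0 (0%) were called, with 324 (3.9%) at an unadjusted p below 0.05 by edgeR. In this and the next comparison a gene could pass the filter on low counts through either label. In the fit of Neuroglia alone 472 genes passed it. Genes too thin in Neuroglia to show a difference therefore entered the adjustment. The 0 calls do not show that Neuroglia and ECs responded alike. Against Neurons 1 of 1445 genes (0.0692%) was called, with 45 (3.11%) unadjusted. That gene was Fosb (chromosome 7:19302696-19310051), with a difference of log2 changes of 4.57 ± 1.00 (SE, edgeR adjusted p = 0.00757). In Neuroglia Fosb had 2883, 1005 and 1195 CPM against 3304 and 2367 CPM, with overlap (log2 0.78, adjusted p = 0.842). In Neurons it had 9, 0 and 2 UMIs against 0 and 2, so the call rests on 13 UMIs, and it was lost without the first eNOS+/+ replicate, which held 9 of them (4.01, adjusted p = 1.00). Without the first or second eNOS-/- replicate the adjusted p was 0.668 and 0.732. The third eNOS-/- replicate was not in this fit, since it had no Neuroglia. Its Neurons held 1 UMI of Fosb, which was 167 CPM, beside 178, 0 and 39.6 CPM in eNOS+/+ and 0 and 5.53 CPM in the other eNOS-/- replicates. The genotypes therefore overlapped in Neurons as well.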

How the data were processed

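Drop-seq libraries of 6 samples were processed by the authors with bcl2fastq and kb-python on GRCm38 and with Seurat 3. The gene annotation used for counting is not given in the sources used here. Cells with under 100 genes or over 10% mitochondrial reads had been removed, and labels came from clustering after integration, except the 3 EC subtypes, for which the authors clustered ECs again without integration. The deposited matrix holds whole-number UMI counts, not normalized, of 20822 genes in 8944 cells, 617246 to 3350799 UMIs per replicate. The deposited annotation gives, per cell, the label, the UMI and gene counts and the percentage of mitochondrial UMIs as the authors computed them. The members and gene lists were chosen with earlier results of these data known.

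UMIs of cells labelled Neuroglia were summed per replicate. Groups came from the sample labels. Sums of at least 10 cells entered CPM (means over replicates, with 10 CPM added for ratios) and tests, which left 3 against 2. Genotypes were compared with edgeR 4.0.16 (glmQLFit and glmQLFTest after filterByExpr and TMM, Benjamini-Hochberg adjustment, called below 0.05) in R 4.3.3, checked on simulated counts, and with DESeq2 1.42.0 as an alternative. Interactions used sums of 2 labels with the library as a block. Shares of cells used cells thinned once to 200 UMIs and Wilson intervals at 95%, in Python 3.11.15 with scipy 1.17.1. Replicates of a genotype differed from each other by more than sampling noise (chi-square per gene 1.85 to 3.55). They are pools of retinas, and p-values measure the spread between pools. The sample labels give no sex. In ECs Xist, an RNA of female cells, was at 95.8, 116 and 1.31 CPM in eNOS+/+ replicates 1 to 3. In eNOS-/- replicates 1 to 3 it was at 231, 7.01 and 75.8 CPM. What this difference between pools adds to the genotype values was not tested.

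Named were the 4 markers, list members needed to check the label, the 25 leading genes (at least 20 UMIs, in at least 3 replicates), the 5 genes of smallest p in each direction, up to 4 members per list by CPM, Nos3 and AI506816. Any other gene was named after its values were seen, and a few list members are not reported here. Positions came from GENCODE vM21 by symbol, which held 20470 of the 20822 symbols. Alternatives were other scalings, filters, thinning depths, 1 cell per barcode family, single replicates left out and, added after the data were seen, the 12 cells with astrocyte genes left out. The deposited annotation also holds a doublet classification, which was not used, and no doublet caller was run.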

Additional observations from a re-analysis of the deposited data

Results flagged for a closer look

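Fosb was the 1 gene whose genotype difference differed between Neuroglia and Neurons by a test of the difference itself, at 4.57 on the log2 scale (edgeR interaction, adjusted p = 0.00757). Its Neurons arm held 11 UMIs in eNOS+/+ and 2 in eNOS-/-, a 23.3-fold ratio with an exact counting interval of 5.08 to 216 over the 5 replicates of the fit, and 9 of the 11 lay in the first eNOS+/+ replicate. With the Neurons of the third eNOS-/- replicate, which had 1 UMI (167 CPM) and was not in the fit, the ratio was 15.7-fold, with an interval of 4.15 to 87.7, and the genotypes overlapped. Fosb in Neuroglia had 333 UMIs and overlapped between the genotypes. The 12 cells with astrocyte genes held 0 of these.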

How the results depend on the processing

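Genes called between the genotypes in Neuroglia numbered 0 in the reported fit, 3 with no filter on low counts (AW011738, mt-Rnr2 and Cartpt), 2 with at least 3 UMIs in at least 2 replicates (AW011738 and Gfap), 1 with a replicate block (mt-Rnr2), 2 without the 12 cells with astrocyte genes (AW011738 and mt-Rnr2, at adjusted p = 0.0190 and 0.00272), and from 0 to 0 when 1 replicate was left out. With no filter the median log2 of all genes was 0.85. Only numbers 1 and 2 are shared by both genotypes here and the labels tie the numbers to no animals, so the replicate block is a check only. The 27 Cartpt UMIs of the 12 cells lay in 1 cell. Interactions with ECs numbered from 0 to 4 when 1 replicate was left out, 4 without the first eNOS+/+ replicate (Glul, Dapl1, Car2 and Malat1) and 2 without the third (Tmsb4x and Car2). Interactions with Neurons numbered 0 with no filter, from 0 to 2 when 1 replicate was left out, with Hbb-bs beside Fosb without the second eNOS+/+ replicate. The cause was not tested. With 1 CPM added in place of 10 the log2 ratios of Rlbp1 over Neurons, Rods and ECs were 9.58, 9.69 and 8.84, those of Slc1a3 over Rods and ECs 8.16 and 8.78, and those of Aqp4 over Neurons and ECs 6.36 and 9.09, and with 1 cell per barcode family Aqp4 over ECs was 5.79. Glul over Rods was 5.50 to 6.64 when 1 replicate was left out, the latter without the third eNOS-/- replicate, in which Rods had 278 CPM. Shares of Neuroglia cells with a UMI of a list were, at 200 UMIs, 500 UMIs and full depth, 98.8%, 100% and 100% for Müller glia, 52.9%, 78.6% and 78.8% for astrocyte, 14.0%, 22.4% and 30.4% for rod, 29.1%, 60.2% and 52.7% for endothelial, 4.07%, 15.3% and 8.70% for mural, and 32.6%, 65.3% and 54.3% for Optc+ genes. The share of Neuroglia among all cells differed by -1.17 to -0.0123 percentage points when 1 replicate was left out. Of the values of named genes between genotypes under these alternatives, 143 kept their direction and side of the threshold and 7 passed it. Keeping every replicate with any Neuroglia cell, or only cells with a Müller glia list UMI, left the sums of the reported fit unchanged. Values under these settings could only agree and are among the 143. Depth limits the tests to 472 genes, and a gene at 1 UMI in the shallowest replicate already reads 143.6 CPM.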

Other observations

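Signals around the glia were sparse. Of 17 measured genes for complement and inflammatory signals, 11 had a UMI in Neuroglia, with 219 UMIs in all. Il33, an alarmin, was at 289 CPM in Neuroglia, 452 in Optc+ cells and under 7 CPM in Neurons, Rods and ECs. Nfkbia, an inhibitor of NF-kappa B, averaged 762 CPM and reached 1972 CPM in the third eNOS+/+ replicate, and C3, Ccl2 and Il6 were at 0. Of matrix and adhesion genes Cdh2, N-cadherin, was highest in Neuroglia at 1686 CPM, with 1293 in its lowest replicate, and Cd9 at 2183 CPM, whereas Fn1, fibronectin, had 198 CPM against 1556 in ECs. Col2a1, a collagen, was at 752 CPM in Neuroglia and 512 in Optc+ cells, and Col9a1 at 1220 and 5772 CPM, while Optc itself was at 81.7 and 4432 CPM.

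A pair of genes too low for the test had UMIs in 1 genotype only, and were named after their values were seen. Noct, a circadian deadenylase, had 0, 0 and 0 UMIs in eNOS+/+ and 7 and 14 UMIs in eNOS-/-, at least 3.76-fold higher with 3 counts over the group as the limit. Prss56, a serine protease of Müller glia, had 10, 0 and 6 UMIs in eNOS+/+ and 0 and 0 in eNOS-/-, at least 9.94-fold lower on the same limit. Its groups overlapped, since the second eNOS+/+ replicate was also at 0. Both limits come from summed UMIs and cover counting error only, not the spread between pools. Under the 2 looser filters on low counts edgeR gave Noct and Prss56 adjusted p = 0.370 to 0.595 and 0.126 to 0.595.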
